A study of Mus musculus with 12 samples.

Results

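Laminins are secreted, cross-shaped proteins built from 1 alpha, 1 beta and 1 gamma chain, and they polymerise into the sheet on which the rest of a basement membrane assembles. In the intestine this sheet underlies the epithelium and surrounds smooth muscle, nerves and vessels, and its chains come partly from the epithelium and partly from the mesenchyme beneath it. The 9 chain genes described here, Lama1, Lama2, Lama3, Lama4, Lama5, Lamb1, Lamb2, Lamb3 and Lamc1, were picked by symbol from 54532 genes counted in mouse colon, and all 9 were among the 17658 with enough reads for a test. For the comparison of tissues, Lama2, Lama4, Lamb1, Lamb2 and Lamc1 were counted as mesenchymal chains and Lama3, Lama5 and Lamb3 as epithelial chains, while Lama1, a chain typical of embryonic basement membranes with restricted use in adults, was placed in neither class. The classes are conventional labels, since the products of Lamb1 and Lamc1 also join alpha chains made by epithelial cells.

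Colon RNA was sequenced from 12 male C57BL/6 mice, 3 in each of 4 groups, which arrived at 6 weeks of age and adapted for 1 week. The DSS group drank 3% (w/v) dextran sulfate sodium, a detergent-like polysaccharide that injures the colonic epithelium, for 5 days. Both treated groups drank the same solution and also received ursolic acid (UA), a plant triterpenoid, by gavage at 200 mg/kg once a day, for 7 days from 1 day before DSS in the UA + DSS group and for 4 days from day 3 of DSS in the DSS + UA group. These durations are those of the study's methods; other parts of its text give other ones. The Con group drank no DSS and received no UA; its label reads untreated, while the study's methods describe gavage of the vehicle. DSS colitis is an acute chemical injury, no group received UA without DSS, and the 3 libraries of a group came from a group of 8 mice.

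The libraries held 15566216 to 19498383 counts. Sums of marker genes differed between groups and libraries. One library, DSS replicate 3, carried RNA of pancreatic acinar cells, its 8 acinar markers summing to 15047 CPM (read counts scaled to library size) against 31.5 to 554 in the other 11, and DSS replicate 2 had the highest sum of 6 leukocyte markers, 3435 CPM against 123 to 1059 elsewhere. Where along the colon a piece came from was scored by its Hox genes, as mean log2 CPM of 5 rectal-side genes minus that of 6 caecal-side genes, and this position score ran from -5.70 to -4.16 in the UA + DSS group, from 0.366 to 3.10 in the DSS group, from 4.12 to 5.06 in the DSS + UA group and from -3.02 to 5.52 in the Con group. The UA + DSS libraries thus overlapped no other group on this score, and the DSS and DSS + UA libraries did not overlap each other. Position and treatment therefore cannot be told apart in either comparison with DSS, in UA + DSS against Con or between the UA groups.

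Lamc1, the gamma chain shared by most laminins, lies on chromosome 1 (GRCm38, 153218922 to 153332786, minus strand, 8272 exonic bases). It measured 43.4, 41.8 and 79.1 CPM in the Con libraries and 188, 212 and 274 CPM in the DSS libraries. It measured 86.8, 52.4 and 88.3 CPM in the UA + DSS libraries and 62.8, 67.4 and 71.6 CPM in the DSS + UA libraries. Every DSS library was above every other library, and the remaining 3 groups overlapped. Lamc1 was 4.11-fold higher in DSS than in Con colon (log2 fold change 2.04 ± 0.28 SE, edgeR adjusted p = 0.00221, n = 3 and 3). It was 2.97-fold lower in UA + DSS than in DSS colon (edgeR adjusted p = 0.00998) and 3.35-fold lower in DSS + UA than in DSS colon (edgeR adjusted p = 0.0134). In bulk tissue, fewer cells of a type and less RNA per cell cannot be told apart.

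Of the 3 beta chains, Lamb1 rose in DSS colon, while Lamb2 and Lamb3 did not pass the test. Lamb1, the common beta chain of fibroblast, vessel and epithelial laminins (chromosome 12, 31265234 to 31329644, plus strand), measured 90.1, 82.7 and 84.6 CPM in Con and 194, 219 and 248 CPM in DSS libraries. With UA it measured 94.8, 71.7 and 83.4 CPM in the UA + DSS group and 64.1, 93.2 and 75.2 CPM in the DSS + UA group. All 9 libraries outside the DSS group lay below the lowest DSS library, and their groups overlapped. Lamb1 was 2.58-fold higher in DSS than in Con (log2 fold change 1.37 ± 0.17 SE, edgeR adjusted p = 0.00135), 2.66-fold lower in UA + DSS than in DSS (edgeR adjusted p = 0.00524) and 2.86-fold lower in DSS + UA than in DSS (edgeR adjusted p = 0.00386).

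Lamb2, a beta chain known from muscle, synaptic and kidney basement membranes (chromosome 9, 108479736 to 108490530, plus strand), followed another pattern. Its levels were 46.7, 23.8 and 38.2 CPM in Con and 33.9, 31.2 and 43.8 CPM in DSS libraries, 2 overlapping sets with a log2 difference of 0.0068 ± 0.23 SE (edgeR adjusted p = 0.985). The UA + DSS libraries, at 28.5, 32.8 and 31.1 CPM, lay within the same range. The DSS + UA libraries, at 15.4, 15.8 and 13.2 CPM, were below all 9 others. Lamb2 in that group was 2.46-fold lower than in DSS (log2 fold change -1.30 ± 0.23 SE, edgeR adjusted p = 0.0162) and 2.45-fold lower than in Con (log2 fold change -1.29 ± 0.23 SE, edgeR adjusted p = 0.00685). Sums of several marker lists were also low in DSS + UA. The 8 smooth muscle markers summed to 549 to 981 CPM there. Their sums were 1294 to 3999 CPM in Con, 836 to 1681 CPM in DSS and 1432 to 2811 CPM in UA + DSS. In DSS + UA 4 of 8 were lower than in Con (8.95% of all genes), and 0 of 8 were called against DSS (7.54% of all genes). The 6 pericyte markers summed to 113 to 212 CPM in DSS + UA. Their sums were 340 to 512 CPM in DSS, 191 to 463 CPM in Con and 335 to 434 CPM in UA + DSS. In DSS + UA 4 of 6 were lower than in DSS (5.0% of all genes). Against Con 1 was higher and 1 lower (9.13% and 8.95% of all genes). The 6 adipocyte markers summed to 58.5 to 99.9 CPM in DSS + UA and to 106 to 305 CPM in the other groups. Of the 5 tested, 0 were called against DSS (7.54% of all genes) and 1 was lower than in Con (8.95%). The 8 endothelial markers summed to 119 to 129 CPM in DSS + UA. Their sums were 202 to 242 CPM in Con, 296 to 461 CPM in DSS and 153 to 179 CPM in UA + DSS. Of these 8 markers, 7 were lower than in DSS (5.0% of all genes) and 4 lower than in Con (8.95%). No marker of these lists was at 0 in all libraries. Over the 12 libraries, which share groups, Pearson's r of Lamb2 was 0.706 with the pericyte and 0.683 with the adipocyte sum. It was 0.647 with the smooth muscle and 0.623 with the endothelial sum. Their part in the Lamb2 difference was not tested. Lamb3, the beta chain of the anchoring laminin of epithelia (chromosome 1, 193207699 to 193343878, plus strand), ranged from 81.0 to 203 CPM over the 12 libraries, overlapped between all groups, and differed from Con by 0.10 ± 0.29 SE on the log2 scale in DSS colon (edgeR adjusted p = 0.811).

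The upstream sequences of 3 of these genes show what lies before the starts of 2 genes that were higher in DSS colon and of Lamb2, which did not pass the test there. They come from RefSeq (GRCm38.p6), read 5′ to 3′ on the gene's strand and stop before the first exon; RefSeq upstream sequence was at hand for 5 of the 9 genes. Capitals mark GC boxes (GGGCGG, or CCGCCC on the other strand) and CCAAT boxes (CCAAT, either strand).
Lamb1, chr12:31265043-31265233, plus strand: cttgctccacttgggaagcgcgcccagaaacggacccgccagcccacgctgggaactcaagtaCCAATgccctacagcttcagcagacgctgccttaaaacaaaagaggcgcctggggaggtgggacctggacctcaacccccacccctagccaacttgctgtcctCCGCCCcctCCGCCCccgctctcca
Lamb2, chr9:108479612-108479735, plus strand: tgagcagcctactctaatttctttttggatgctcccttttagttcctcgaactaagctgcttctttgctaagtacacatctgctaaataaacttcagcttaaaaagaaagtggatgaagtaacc
Lama5, chr2:180225860-180226109, minus strand: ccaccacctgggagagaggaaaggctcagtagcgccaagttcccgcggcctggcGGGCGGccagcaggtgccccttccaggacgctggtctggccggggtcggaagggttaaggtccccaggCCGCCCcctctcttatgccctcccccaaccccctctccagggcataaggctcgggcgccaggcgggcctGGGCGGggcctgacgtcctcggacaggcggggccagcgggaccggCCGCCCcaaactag
In 250 bases before the RefSeq start the Lama5 sequence held 4 GC boxes, Lamb1 held 2 GC boxes and 1 CCAAT box, and Lamb2 held neither. Over 32851 mouse promoters of that length, 32.7% held a GC box and 33.8% a CCAAT box. The AP-1 letters TGANTCA (6.75% of promoters, either strand) and the TATA letters TATAAA (12.4%, either strand) were in none of the 3. A match is a description of letters, and these shared letters were not tied to any measurement.

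Among the alpha chains, which carry the receptor-binding end of the trimer, Lama1 had the highest fold. Lama1 (chromosome 17, 67697259 to 67822647, plus strand) was close to absent from Con colon, with 16, 26 and 57 counts, or 0.826, 1.44 and 3.04 CPM. It measured 16.6, 31.3 and 37.2 CPM in the DSS libraries. UA + DSS libraries held 7.05, 2.68 and 9.77 CPM, and DSS + UA libraries 6.94, 6.18 and 6.87 CPM. All DSS libraries exceeded all others, and the DSS + UA libraries exceeded all Con libraries. The rise in DSS colon was 16.0-fold (log2 fold change 4.00 ± 0.57 SE, edgeR adjusted p = 0.00229). Lama1 was 4.37-fold lower in UA + DSS than in DSS (edgeR adjusted p = 0.0200) and 4.27-fold lower in DSS + UA than in DSS (edgeR adjusted p = 0.0390), and in DSS + UA it was still 3.76-fold above Con (edgeR adjusted p = 0.0324). The call in DSS + UA against DSS was lost, with the direction kept, without Con replicate 2, UA + DSS replicate 1 or 3, DSS replicate 2 or 3, or any DSS + UA library (edgeR adjusted p = 0.0502 to 0.125), and that in DSS + UA against Con without Con replicate 1 or 2 or any DSS + UA library (0.0593 to 0.0927).

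Lama5, the widespread alpha chain of adult epithelial and vascular basement membranes (chromosome 2, 180176373 to 180225859, minus strand), measured 38.6, 21.6 and 41.6 CPM in Con and 63.4, 137 and 92.5 CPM in DSS. UA + DSS libraries held 33.8, 28.8 and 43.0 CPM, and DSS + UA libraries 40.8, 28.4 and 41.3 CPM. Again only the DSS libraries stood apart. Lama5 was 2.89-fold higher in DSS than in Con (log2 fold change 1.53 ± 0.32 SE, edgeR adjusted p = 0.00709), 2.79-fold lower in UA + DSS than in DSS (edgeR adjusted p = 0.0147) and 2.66-fold lower in DSS + UA than in DSS (edgeR adjusted p = 0.0302). The highest library, DSS replicate 2, also had the most leukocyte RNA. Without it Lama5 was still higher in DSS than in Con, but DSS + UA against DSS lost the call (edgeR adjusted p = 0.0851). The DSS + UA against DSS call was lost in 7 of 21 alternatives (edgeR adjusted p up to 0.104). Among them were leaving out any DSS + UA library, position as a covariate and a fit of the compared groups alone. The sum of 8 epithelial markers went the other way, at 6387 to 9622 CPM with DSS and 10324 to 15072 CPM in Con libraries. Singly, 1 of the 8 was called lower (12.6% of all genes) and 0 higher. The count lower was 0 without DSS replicate 2 and 3 without DSS replicate 3. Lama5 CPM as a percentage of the epithelial sum was 0.143% to 0.385% in Con and 0.795% to 2.15% in DSS.

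Lama4, found around vessels and in mesenchyme (chromosome 10, 38965515 to 39110188, plus strand), measured 26.8, 23.2 and 35.5 CPM in Con and 66.6, 61.9 and 96.2 CPM in DSS. UA + DSS libraries held 43.8, 22.8 and 30.4 CPM, and DSS + UA libraries 21.5, 37.3 and 26.7 CPM. The DSS libraries were again the highest. Lama4 rose 2.64-fold in DSS (log2 fold change 1.40 ± 0.29 SE, edgeR adjusted p = 0.00729) and was lower by 2.32-fold in UA + DSS and 2.64-fold in DSS + UA than in DSS (edgeR adjusted p = 0.0192 and 0.0257).

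The remaining alpha chains, Lama2 and Lama3, did not pass the edgeR test in any comparison, and both varied widely within the DSS group. Lama2, the muscle and fibroblast alpha chain (chromosome 10, 26980036 to 27619758, minus strand), measured 13.5, 9.31 and 19.0 CPM in Con libraries and 40.1, 12.8 and 50.7 CPM with DSS. Here DSS replicate 2 lay inside the Con range, and DSS replicate 3, with its acinar RNA, was highest. The log2 difference was 1.31 ± 0.51 SE (edgeR adjusted p = 0.0801), 1.71 without DSS replicate 2 (adjusted p = 0.0197) and 0.93 without DSS replicate 3 (adjusted p = 0.230); DESeq2 called it (adjusted p = 0.0339). UA + DSS libraries held 24.0, 11.7 and 13.7 CPM, and DSS + UA libraries 7.16, 15.0 and 6.42 CPM. In DSS + UA Lama2 was 3.65-fold below DSS (log2 fold change -1.87 ± 0.52 SE, edgeR adjusted p = 0.0526). It was called lower there by DESeq2 (adjusted p = 0.00431), with library size alone (0.0438), with at least 10 counts in every sample (0.0415) and without DSS replicate 2 (0.0288), and its adjusted p over all 21 alternatives ranged from 0.00431 to 0.170. Against DSS the UA + DSS libraries differed by -1.08 ± 0.51 SE on the log2 scale (edgeR adjusted p = 0.161). Lama3, the alpha chain of the epithelial anchoring laminin (chromosome 18, 12333819 to 12583013, plus strand), showed the opposite arrangement, with 43.9, 123 and 53.0 CPM in DSS against 32.1, 46.7 and 36.1 CPM in Con. DSS replicate 2 was highest there, and the log2 difference was 0.94 ± 0.48 SE (edgeR adjusted p = 0.163). UA + DSS libraries held 29.5, 75.2 and 73.5 CPM of Lama3, and DSS + UA libraries 37.8, 39.0 and 85.2 CPM, overlapping both other groups. An exon of Lama2 overlaps one of Gm48084 and an exon of Lama3 one of Gm29200, and whether reads were assigned by strand was not given in the sources used here.

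**Figure D1:**
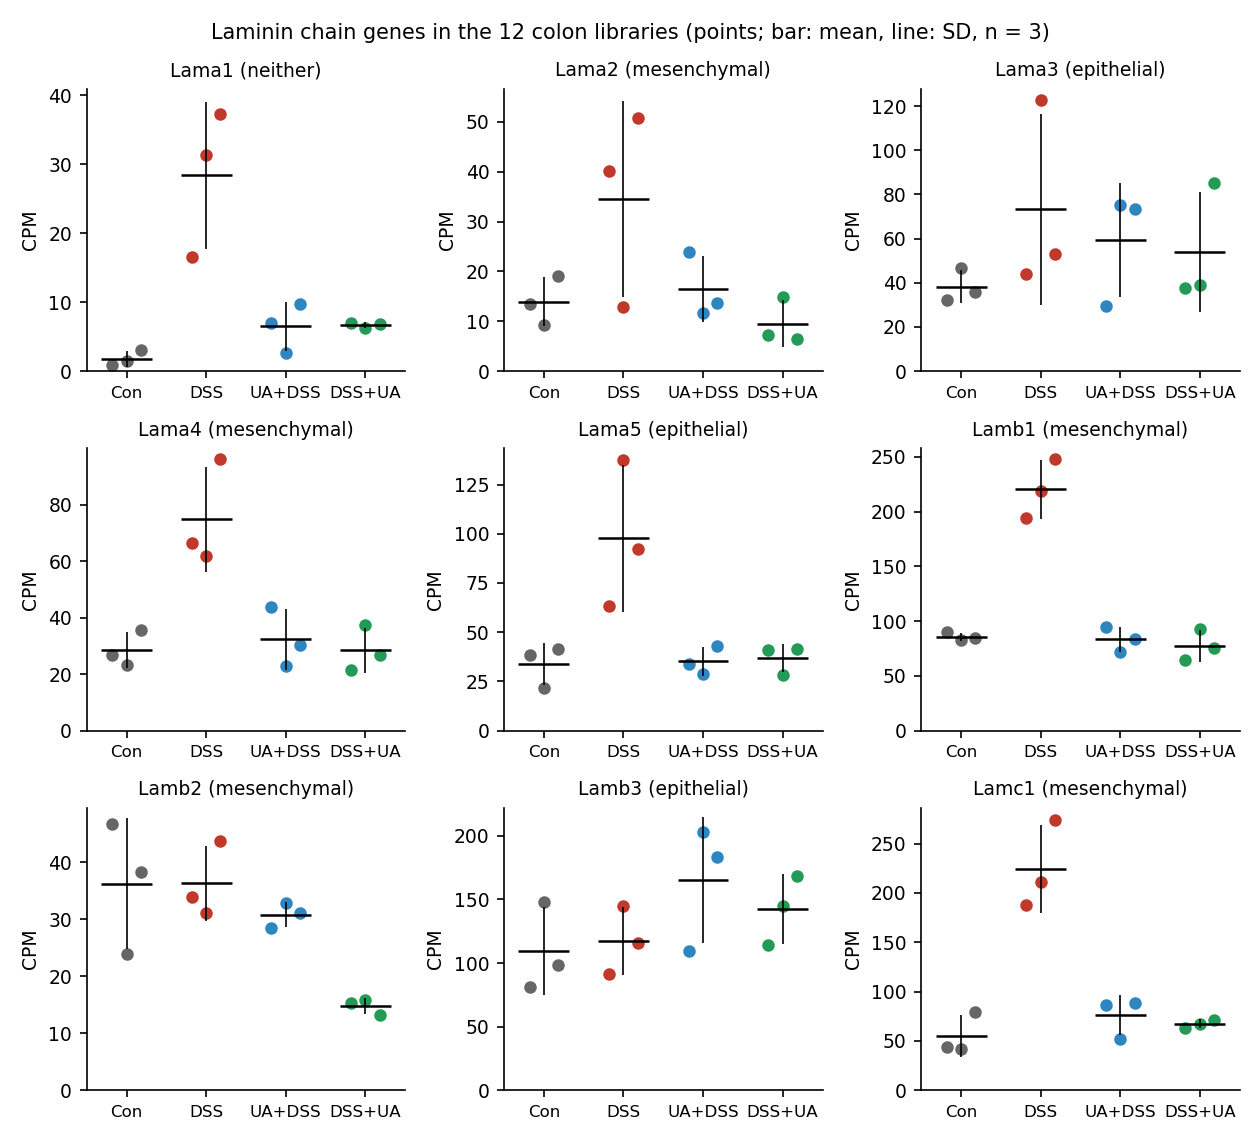
TMM-scaled CPM (y axis, from 0) of the 9 laminin chain genes by group; points are the 3 libraries in replicate order, horizontal bars the mean and vertical lines the SD. The DSS libraries lie above all others for Lama1, Lama4, Lama5, Lamb1 and Lamc1, and the DSS + UA libraries lie below all others for Lamb2.

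Counted together, 5 of the 9 chains were higher and 0 were lower in DSS than in Con colon, where 26.5% of all tested genes were called at an adjusted p under 0.05, 13.9% higher and 12.6% lower. The same 5 had libraries that did not overlap between the groups, as did 41.3% of all tested genes. The median log2 fold change was 1.37 over the 9 chains and -0.03 over all tested genes. With the position score as a covariate 5 chains were called higher, and without DSS replicate 3 also 5.

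In UA + DSS against DSS, 5 of the 9 were lower and 0 higher, where 18.7% of all genes were called, 10.5% lower and 8.21% higher. Libraries did not overlap for 5 of the 9 and for 42.9% of all genes. Their median log2 fold change was -1.22, against -0.02 over all genes. With position as a covariate 0 of the 9 were called by edgeR: the 5 genes had log2 fold changes of -3.03 to -1.25 with adjusted p = 0.0741 to 0.190. Without UA + DSS replicate 2 only Lamb1 was called, Lama1 was not called without UA + DSS replicate 1 (adjusted p = 0.0533), and Lama4 not without UA + DSS replicate 3 (0.0619), while Lama2 was called without DSS replicate 2 (0.0499). In DSS + UA against DSS, 6 of the 9 were lower and 0 higher, the 6th being Lamb2, where 7.54% of all genes were called, 5.0% lower and 2.54% higher. Libraries did not overlap for 6 of the 9 and for 34.8% of all genes. The median was -1.41, against 0.02 over all genes, and with position as a covariate 3 genes, Lamb1, Lamb2 and Lamc1, were called lower. Without DSS + UA replicate 3 only Lamb1 was called, and without replicate 1 or replicate 2 of that group 3 chains were. In that comparison Lamb2 was not called without DSS + UA replicate 2 or 3 (edgeR adjusted p = 0.0504 and 0.0975), and Lamc1 not without DSS + UA replicate 3 (0.0724). Without DSS replicate 2 Lama1 and Lama5 were not called and Lama2 was (0.0288). These comparisons share the DSS libraries with each other and with DSS against Con, so a change in those libraries enters all of them.

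Against Con, 0 of the 9 chains were called in UA + DSS colon by edgeR, where 0.00566% of all genes were called, and no chain had separate libraries, as 20.6% of all genes did. One of them, Lama1, had an unadjusted p under 0.05 (log2 fold change 1.88 ± 0.53 SE, edgeR adjusted p = 0.266), DESeq2 called 1 and limma-voom 0. In DSS + UA against Con (18.1% of all genes called, 9.13% higher and 8.95% lower, 39.0% with libraries that did not overlap), Lama1 was higher and Lamb2 lower, as given above, and the other 7 ranged from -0.55 to 0.50 on the log2 scale. A p that misses the threshold does not show that the groups were alike. Directly compared, the UA groups differed in 1 of the 9 chains, where 16.8% of all genes were called, 7.54% higher and 9.23% lower, and 45.3% had libraries that did not overlap: Lamb2 was 2.08-fold higher in UA + DSS than in DSS + UA (log2 fold change 1.06 ± 0.23 SE, edgeR adjusted p = 0.0145). That call was lost with position as a covariate (log2 fold change 1.63, edgeR adjusted p = 0.280) and without UA + DSS replicate 2 or DSS + UA replicate 3 (0.0600 and 0.0659).

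**Figure D2:**
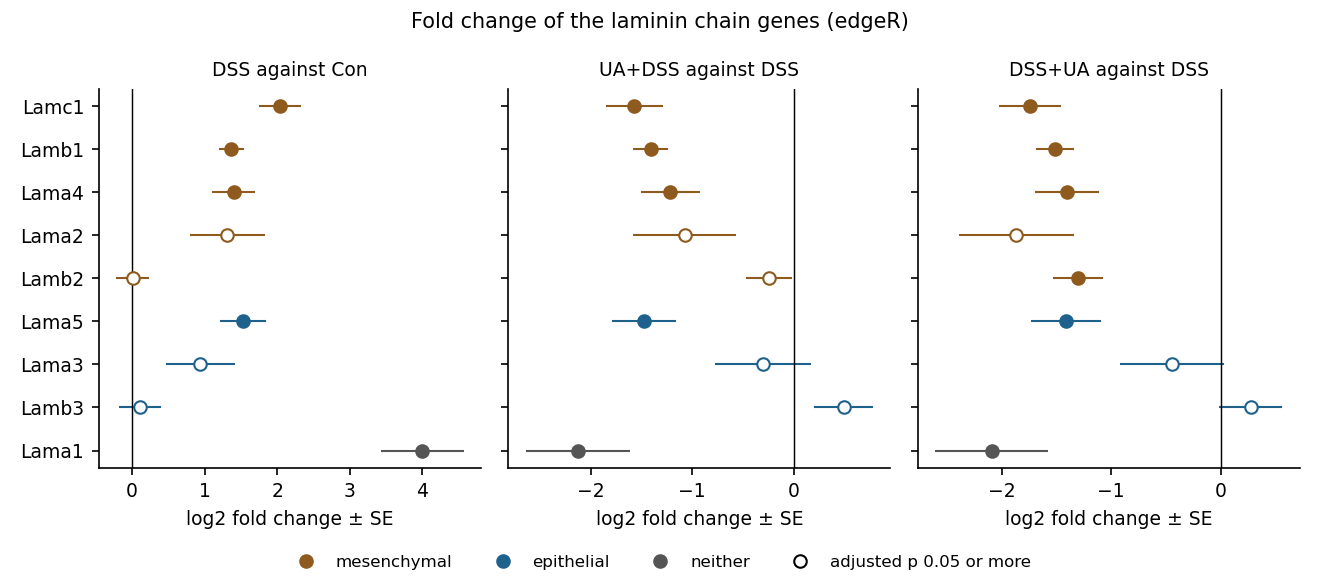
Log2 fold change with SE (x axis) of each laminin chain gene in DSS against Con, UA + DSS against DSS and DSS + UA against DSS, coloured by class; filled points have an edgeR adjusted p under 0.05. Lamc1, Lamb1, Lama4, Lama5 and Lama1 are filled in every panel, and Lamb2 is filled only in the last.

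The mesenchymal and epithelial classes did not separate the chains that were called from those that were not. In DSS against Con, 3 of 5 mesenchymal and 1 of 3 epithelial chains were higher, where 13.9% of all tested genes were. Classes of 5 and 3 genes are too small to compare by such counts. Averaged over each class, mesenchymal chains went from 5.17 ± 0.33 (SD, n = 3) mean log2 CPM in Con to 6.37 ± 0.37 in DSS, and epithelial chains from 5.67 ± 0.11 to 6.48 ± 0.55. The mesenchymal minus epithelial difference was -0.50 ± 0.36 in Con and -0.11 ± 0.82 in DSS, -0.78 ± 0.68 in UA + DSS and -1.15 ± 0.53 in DSS + UA (SD, n = 3 each, log2). In DSS replicates 1 and 3 the difference was above 0 (0.34 and 0.38), and in DSS replicate 2 it was -1.05, below every Con library, so the DSS group spanned the Con range.

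**Figure D3:**
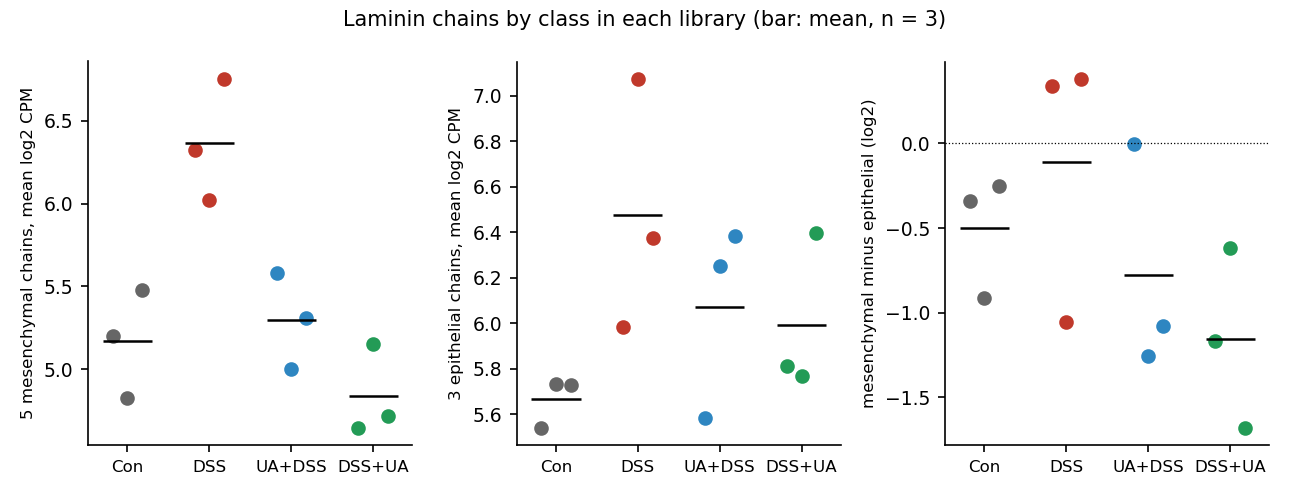
Mean log2 CPM of the 5 mesenchymal chains, of the 3 epithelial chains and their difference (y axes) in each library by group; bars are means of 3. The difference overlaps between the DSS group, -1.05 to 0.38, and the Con group, -0.91 to -0.25.

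Levels of different genes were compared per kilobase of exonic sequence, taken as the union of the exons of all annotated transcripts. This length can exceed that of the transcripts present in colon. The order of genes, and the sums, shares and ratios per length below, depend on it. In Con colon the order was Lamb3 (16.5 ± 5.28 CPM per kb, SD, n = 3), Lamb1 (8.65 ± 0.39), Lamc1 (6.62 ± 2.55), Lamb2 (5.96 ± 1.90), Lama3 (3.56 ± 0.70), Lama5 (2.98 ± 0.94), Lama4 (2.36 ± 0.53), Lama2 (0.85 ± 0.30) and Lama1 (0.18 ± 0.12). From Lamb1 to Lamb2 and from Lama3 to Lama4, neighbours differed by less than the larger SD of the pair. In DSS colon Lamc1 (27.1 ± 5.39) and Lamb1 (22.2 ± 2.73) came before Lamb3 (17.7 ± 4.05), and Lama1 (2.93 ± 1.10) came before Lama2 (2.11 ± 1.2); Lamc1 and Lamb1, and likewise Lama1 and Lama2, differed by less than the larger SD. In both UA groups Lamb3 was first again, at 25.0 ± 7.47 CPM per kb in UA + DSS and 21.5 ± 4.13 in DSS + UA.

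Alpha chain levels summed to 9.94 ± 1.33 CPM per kb in Con and 26.7 ± 6.76 in DSS (SD, n = 3), with no overlap (8.88 to 11.4 and 19.3 to 32.7). Within that sum Lama1 made up 0.898% to 2.75% in Con, 8.86% to 13.7% in DSS, 2.23% to 6.74% in UA + DSS and 4.77% to 7.15% in DSS + UA libraries. Beta chains summed to 31.2 ± 3.09 in Con and 45.9 ± 6.05 in DSS, and Lamb1 made up 24.0% to 31.3% of them in Con against 45.0% to 50.3% in DSS. Per length, Lamb1 was 1.18 to 2.13 times Lamb2 in Con, 3.48 to 4.30 times in DSS, 1.34 to 2.04 times in UA + DSS and 2.56 to 3.61 times in DSS + UA. Ratios were thus high in the DSS libraries, where Lamb1 was high, and in the DSS + UA libraries, where Lamb2 was low.

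**Figure D4:**
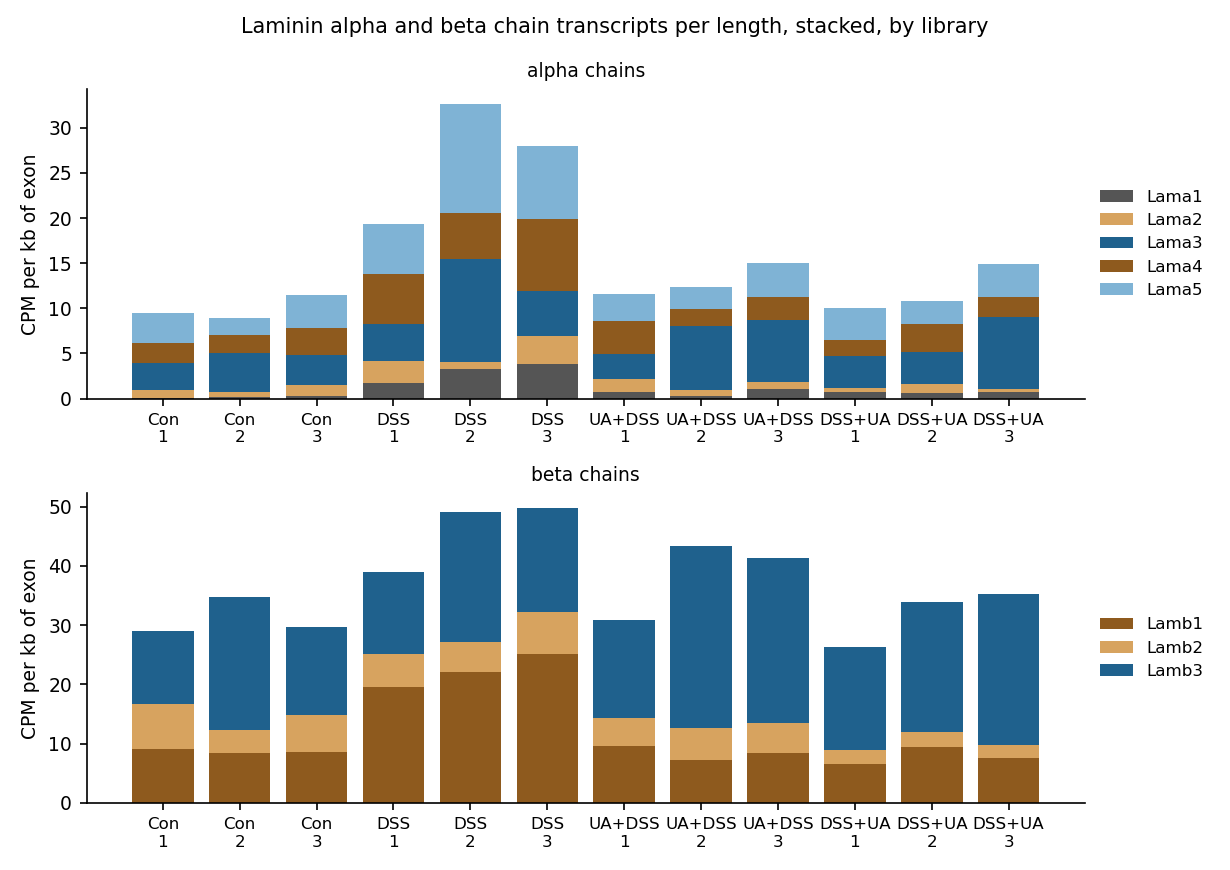
CPM per kilobase of exonic sequence (y axis) of alpha and beta chains, stacked by gene, in each of the 12 libraries. The alpha stacks are highest in the DSS libraries, and the Lamb1 part of the beta stack is largest there.

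The genes around the laminins were taken as 3 groups. Of 19 partners that build the rest of the basement membrane, 8 were higher and 1 lower in DSS than in Con colon, where 13.9% and 12.6% of all genes were. Col18a1, the source of endostatin, went from 25.9 to 49.99 CPM in Con to 414 to 565 CPM in DSS (log2 fold change 3.69 ± 0.41 SE, edgeR adjusted p = 0.00117). Col4a1, a chain of the main type IV collagen network, rose by 2.47 ± 0.38 SE and Nid2, one of the nidogens that link laminin to type IV collagen, by 1.74 ± 0.27 SE on the log2 scale (edgeR adjusted p = 0.00275 and 0.00271). The 1 lower partner, named after its values were seen, was Col4a3, of another type IV collagen network (log2 fold change -1.92 ± 0.46 SE, edgeR adjusted p = 0.0130). In UA + DSS against DSS 7 partners were lower (10.5% of all genes) and in DSS + UA against DSS 9 were (5.0% of all genes); with position as a covariate the counts were 0 and 3. The Nid2 and Col4a1 calls in UA + DSS were lost without UA + DSS replicate 2, and those in DSS + UA without DSS + UA replicate 3. Nid2 was lower in both (log2 fold change -1.55 ± 0.26 and -1.76 ± 0.27 SE, edgeR adjusted p = 0.00973 and 0.00967).

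**Figure D5:**
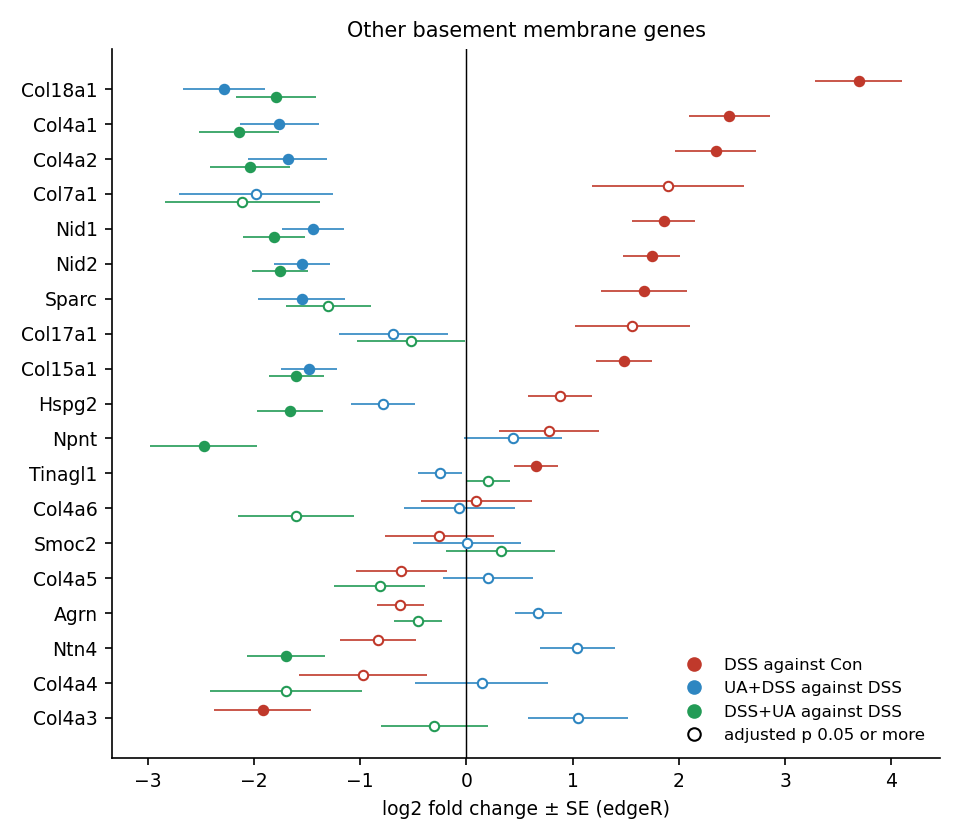
Log2 fold change with SE (x axis) of 19 other basement membrane genes in 3 comparisons, ordered by DSS against Con; filled points have an edgeR adjusted p under 0.05. Col18a1 is at the top with 3.69, and Col4a3 at the bottom with -1.92.

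Of 12 enzymes that cut or glycosylate laminins or their receptor dystroglycan, 7 were higher and 0 lower in DSS than in Con (13.9% and 12.6% of all genes), and the 7 are proteases. Mmp9, a gelatinase abundant in neutrophils, went from 0.534 to 0.887 CPM in Con to 33.5, 491 and 55.5 CPM in DSS, with the highest value in the library richest in leukocyte RNA. Mmp14, a membrane-bound protease, and Mmp2, which it activates, rose by 1.42 ± 0.26 and 1.77 ± 0.33 SE on the log2 scale (edgeR adjusted p = 0.00481 and 0.00511). Against DSS, 6 enzymes were lower in UA + DSS (10.5% of all genes) and 5 in DSS + UA (5.0% of all genes), among them Bmp1 (log2 fold change -1.76 ± 0.30 SE in DSS + UA, edgeR adjusted p = 0.0140), which trims laminin chains outside the cell; with position as a covariate the counts were 0 and 1. The Bmp1 call in DSS + UA was also lost without DSS + UA replicate 3 (adjusted p = 0.0929).

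Of 12 laminin receptors, among them the laminin-binding integrins, dystroglycan (Dag1) and Bcam, 0 were called in DSS against Con by edgeR, where 26.5% of all genes were, 3 had an unadjusted p under 0.05, and DESeq2 and limma-voom each called 1; their median log2 fold change was 0.17. Whether the receptors and the chains differed was not tested. Itga7, the laminin-binding integrin of muscle, was higher in UA + DSS (31.6 to 41.7 CPM) than in DSS (8.54 to 21.6 CPM; log2 fold change 1.14 ± 0.33 SE, edgeR adjusted p = 0.0360), a call lost in 10 of 21 alternatives, among them position as a covariate (adjusted p = 0.549), library size alone, and leaving out any UA + DSS library, DSS replicate 1 or 2 or DSS + UA replicate 2. In DSS + UA against DSS, Bcam, a receptor of Lama5-containing laminins, was lower (log2 fold change -0.92 ± 0.17 SE, edgeR adjusted p = 0.0193), as was the collagen and laminin receptor Itga1 (log2 fold change -1.59 ± 0.32 SE, edgeR adjusted p = 0.0235). With position as a covariate Bcam was called (adjusted p = 0.0424) and Itga1 was not (adjusted p = 0.0699). Without DSS + UA replicate 3 neither was called (adjusted p up to 0.0975 for Bcam and 0.0981 for Itga1 over the alternatives), and Itga1 was also lost without DSS + UA replicate 2 or DSS replicate 2.

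Several lists of cell type markers held genes that were higher in DSS than in Con colon along with the 5 chains. The 8 fibroblast markers summed to 3404 to 7063 CPM in DSS against 1224 to 1980 CPM in Con. Their sums were 681 to 1738 CPM in UA + DSS and 997 to 2469 CPM in DSS + UA. In DSS 6 of 8 were higher than in Con, where 13.9% of all genes were. Without DSS replicate 3, which had the highest fibroblast sum, 3 were called higher, and without DSS replicate 2 the count was 4. The 8 endothelial markers summed to 296 to 461 CPM in DSS and 202 to 242 CPM in Con, with 4 of 8 higher (13.9% of all genes). No marker of either list was at 0 throughout. All 6 leukocyte markers were higher (13.9% of all genes), their sums being 568 to 3435 CPM in DSS and 123 to 218 CPM in Con. Over the 12 libraries r between the leukocyte sum and the 5 chains ran from 0.619 (Lama4) to 0.775 (Lama5). The 5 chains were taken for being higher in DSS, so r with any sum that was also higher there was partly set in advance. With the fibroblast sum r ran from 0.708 (Lama1) to 0.922 (Lama4), and with the endothelial sum from 0.457 (Lama1) to 0.865 (Lamb1). With the epithelial sum r of the 5 chains ran from -0.823 (Lama5) to -0.470 (Lama1). Lama5, counted as an epithelial chain, had r = 0.782 with the fibroblast sum and 0.738 with the endothelial sum. Of the other epithelial chains, Lama3 had r = -0.271 and Lamb3 r = 0.399 with the epithelial sum. Of the pericyte markers 3 of 6 were higher (13.9% of all genes), while smooth muscle sums in DSS (836 to 1681 CPM) overlapped those in Con (1294 to 3999 CPM). As a percentage of the fibroblast sum, Lamb1 was 4.55% to 6.75% in Con and 3.52% to 5.71% in DSS. Lama4 was 1.35% to 2.28% in Con and 1.36% to 1.95% in DSS. Lamc1 was 2.19% to 5.09% in Con (median 3.42%) and 3.88% to 5.52% in DSS (median 4.72%). The fibroblast list includes the matrix genes Col1a1, Col1a2 and Col3a1, so its sum is not a count of cells. Those ranges overlapped, unlike the CPM levels themselves. The part of the cell mixture in the differences was not tested.

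Across the 12 libraries, which share groups, Pearson's r of log2 CPM over the 10 pairs of the 5 chains that were higher in DSS colon ran from 0.737 (Lama1 and Lamb1) to 0.945 (Lama4 and Lamb1). The 5 were taken for being higher in the DSS libraries, which are among these 12. High r between them was thus largely set in advance. Lama3 and Lamb3, which join one trimer, had r = 0.702, and Lamb2 had r = -0.0052 with Lama1. Among 12858 other genes, the nearest to Lamc1 were Nid1 (0.991), Kirrel (0.986) and Colec12 (0.978), and the nearest to Lamb1 were Lhfp (0.984), Cd93 (0.977) and Mdfic (0.965). Lama4 was nearest to Mmp2 (0.976), Lama1 to Piezo1 (0.976), Lama5 to Sulf1 (0.964), Lamb2 to Spry1 (0.950), Lamb3 to Crat (0.945), Lama3 to Creb3l3 (0.939) and Lama2 to Scarf2 (0.936).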

How the data were processed

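Colon RNA libraries (TruSeq, HiSeq-2500) were made from 3 mice in each of 4 groups. The deposited files hold raw read counts per gene that the authors made; per the labels, FastQC, HISAT2 and Cuffdiff were used with GRCm38, and the aligner's version, the counter, its strand setting and its treatment of shared reads were not given in the sources used here. Counts were fitted in edgeR 4.0.16 (quasi-likelihood, robust, TMM factors, all 12 libraries, genes kept by filterByExpr), with Benjamini-Hochberg adjustment over 17658 genes and a threshold of 0.05; the SE is the log2 fold change over the square root of F. CPM is TMM-scaled; log2 CPM used a prior count of 2. Exonic lengths came from GENCODE, and 50-base stretches shared with other genes made up at most 3.28% of a member. Alternatives included DESeq2 1.42.0, limma 3.58.1, other scalings and filters, a replicate block, a position covariate and each library left out. The 9 genes, the gene lists and the naming rule (the 3 genes with the smallest p per list and main comparison, and the 3 most correlated genes per member among genes averaging a log2 CPM of 1 or more) were chosen with earlier results of these data known. Replicate numbers did not pair libraries: 5 of 18 same-number pairs had a correlation over 0.1 (-0.22 to 0.19). P-values measure the spread between 3 mice a group.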

Additional observations from a re-analysis of the deposited data

Results flagged for a closer look

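One result was flagged because the 2 UA groups differed from each other. Lamb2 was higher in UA + DSS than in DSS + UA colon by 1.06 ± 0.23 SE on the log2 scale (edgeR adjusted p = 0.0145), with 28.5, 32.8 and 31.1 CPM against 15.4, 15.8 and 13.2 CPM, higher in 3 of 3 libraries. The call was lost with the colon position score as a covariate (log2 fold change 1.63, adjusted p = 0.280), without UA + DSS replicate 2 (adjusted p = 0.0600) and without DSS + UA replicate 3 (adjusted p = 0.0659). Sums of smooth muscle markers (1432 to 2811 CPM against 549 to 981 CPM) and pericyte markers (335 to 434 CPM against 113 to 212 CPM) differed the same way. So did those of adipocyte markers (198 to 305 CPM against 58.5 to 99.9 CPM) and endothelial markers (153 to 179 CPM against 119 to 129 CPM). Their part was not tested.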

How the results depend on the processing

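Apart from fits with a library left out, the number of chains called moved by over 1.5 times under few settings. With the colon position score as a covariate UA + DSS against DSS had 0, DSS + UA against DSS had 3 and the comparison of the UA groups had 0; DESeq2 gave 1 in UA + DSS against Con and limma-voom gave 1 in DSS + UA against Con. With each library left out in turn it ranged from 5 to 6 in DSS against Con, 1 to 6 in either UA group against DSS, 1 to 2 in DSS + UA against Con, 0 to 1 in UA + DSS against DSS + UA, and was 0 in UA + DSS against Con. The mesenchymal minus epithelial difference with Lama2 and Lama4 alone as mesenchymal chains was -1.38 in Con, -0.93 in DSS, -1.60 in UA + DSS and -2.01 in DSS + UA. With each library left out it ranged from -0.63 to -0.30 in Con, -0.36 to 0.36 in DSS, -1.17 to -0.54 in UA + DSS and -1.42 to -0.89 in DSS + UA. Changes of sign touched uncalled values, from 0.0068 to 0.49 in size. For Lamb2 in DSS against Con the log2 fold change was -0.047 with upper-quartile factors, -0.016 with at least 10 counts in every sample, -0.037 with the position covariate, -0.0072 in a fit of the compared groups alone, and -0.22 to 0.23 with a library left out; Lamb3 ranged from -0.075 to 0.39 there. With the position covariate Lamb2 and Lamb3 in UA + DSS against DSS were 0.14 and -0.040. With a library left out Lama3 ranged from -0.57 to 0.29 for UA + DSS against DSS, and DSS + UA against DSS gave -0.92 to 0.17. The causes were not tested. Of 31 gene values followed singly, 9 kept direction and side of the threshold in all 21 alternatives; 23 smaller values had 14 with a change of sign and 0 called under any alternative. The replicate block, which rests on numbers that do not pair libraries, left 5 of 9 chains called in DSS + UA against DSS, Lama5 having an adjusted p of 0.0514. Scaling by library size alone shifted the median of all genes in DSS + UA against DSS by -0.13. The 3 mice of a group, and Lama1 counts of 16 to 57 in Con, limit the precision.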
